A study of Mus musculus with 24 samples.

Results

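The RNAs described here are those encoded by the mitochondrial genome, chromosome M, in mouse aorta. They were chosen by the chromosome column of the deposited expression table and by no measured value. That rule took 34 of the 32561 genes in the table, namely 13 messenger RNAs, 2 ribosomal RNAs and 19 transfer RNAs. The transfer RNA genes mt-Td, mt-Tk and mt-Ts2 are not analysed here.

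The study asked how renal failure, sex and a change in Bmp2 alter gene expression in the aorta, and it profiled poly(A) RNA from 24 aortas in 6 groups of 4 libraries. All mice were congenic on the 129S1/SvlmJ strain and were 44 to 53 days old. Of the 12 control libraries, 11 came from mice heterozygous for the recessive Klotho mutation (Klotho+/Kl) and 1, male Bmp2+/+ control replicate 1, from a Klotho+/+ mouse. Affected mice were homozygous for it (Kl/Kl) and are labelled as having renal disease. Males and females with 2 wild-type Bmp2 alleles (Bmp2+/+) make up 4 groups, and males homozygous for the Bmp2 ∆UCS mutation (∆UCS), control and Kl/Kl, make up the other 2. Kl/Kl was compared with control in 3 strata: male Bmp2+/+, female Bmp2+/+ and male ∆UCS. There were no ∆UCS females, and the tissue was aorta, flash frozen. The labels give each library a replicate number but do not say that it is a single animal, so p-values measure the spread between these samples.

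Mitochondrial DNA is transcribed from both strands as long precursors that run through many genes. Transfer RNA genes lie between most of the messenger and ribosomal RNA genes, and the precursors are cut at the transfer RNAs to release the mature RNAs. The RNAs of a precursor therefore start at a common rate, and their steady levels also depend on processing, on poly(A) tail addition by a mitochondrial polymerase and on decay. The messenger RNAs encode subunits of respiratory complexes I (the Nd genes), III (mt-Cytb) and IV (the Co genes) and of ATP synthase (mt-Atp6 and mt-Atp8), and the 2 ribosomal RNAs form the mitochondrial ribosome with imported proteins.

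The ends of 4 messenger RNAs are shown because the comparisons turn on them and because they differ in how the reading frame closes. Sequences are from GENCODE M21 transcripts (GRCm38), 5′ to 3′, and all 34 genes have the same start, end and strand there as in the deposited table, whose build is mm39 per the submitters' processing notes. Capitals mark the bases of the stop codon that the gene itself encodes. On the plus strand lie mt-Cytb (chrM:15244-15288), mt-Co1 (chrM:6828-6872) and mt-Nd1 (chrM:3663-3707), and on the minus strand lies mt-Nd6 (chrM:13552-13596), the messenger RNA gene of the other strand.
mt-Cytb: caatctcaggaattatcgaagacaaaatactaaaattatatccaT
mt-Co1: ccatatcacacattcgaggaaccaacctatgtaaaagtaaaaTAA
mt-Nd1: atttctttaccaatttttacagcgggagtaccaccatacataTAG
mt-Nd6: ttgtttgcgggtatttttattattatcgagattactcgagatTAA
The mt-Cytb gene ends 1 base past its last full codon, as do mt-Co3 and mt-Nd4, and such stop codons are completed by the poly(A) tail. mt-Co1, mt-Nd1 and mt-Nd6 encode their stop codon in full.

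Genes on this compact chromosome also overlap. mt-Atp8 and mt-Atp6 share 43 bases (chrM:7927-7969), which begin with the mt-Atp6 start codon, in capitals. mt-Nd4l and mt-Nd4 share 7 bases, in capitals within chrM:10147-10193. mt-Ts1, the most abundant transfer RNA row, lies on the minus strand (chrM:6870-6938), and its last 3 bases, in capitals, are the complement of the end of mt-Co1.
mt-Atp8 and mt-Atp6: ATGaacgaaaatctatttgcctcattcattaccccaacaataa
mt-Nd4l and mt-Nd4: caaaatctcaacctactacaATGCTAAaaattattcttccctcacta
mt-Ts1: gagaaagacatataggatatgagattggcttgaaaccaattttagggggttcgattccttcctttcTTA
mt-Nd5 and mt-Nd6 overlap by 14 bases on opposite strands. The library kit marks strand, but whether strand was used in counting is not given in the sources used here, so reads in the stretches shared by opposite strands cannot be assigned. Precursors of both strands also run through many genes. The rows of mt-Nd6 and of the minus-strand transfer RNAs may therefore hold reads of the other strand along their whole length.

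Depth was high. Values are TPM, which are read counts per gene length on a fixed total, and each column summed to 482073 TPM. Reads estimated from the TPM came to about 20600000 to 61100000 per library, of which chromosome M genes held about 5560000 to 15900000. In 2 libraries, male Bmp2+/+ Kl/Kl replicate 1 and female Bmp2+/+ Kl/Kl replicate 2, the sex-specific genes Xist and Ddx3y went against the labelled sex. Their summed macrophage markers, 111 and 45.5 TPM after median-of-ratios scaling, lay within the ranges of the control libraries of their strata (33.8 to 167 and 45.4 to 90.5). Results are given without them (22 libraries) and with them (all 24). Library names come in 2 spellings, here called library set 1 and library set 2, whose meaning the labels do not state. The female libraries are all of set 2 and the ∆UCS libraries all of set 1, while both occur among male Bmp2+/+ libraries. A term for set in limma therefore rests on the male Bmp2+/+ libraries alone, and the exact tests between sexes or Bmp2 genotypes do not adjust for it.

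Between 40.2% and 61.2% of each library's TPM came from chromosome M genes, but only 16.0% to 31.2% of its estimated reads. These TPM divide by the span of a gene from start to end, introns included. That lowers genes with introns against chromosome M genes, which have none. Messenger RNAs made up 93.2% to 97.9% of the chromosome M TPM, ribosomal RNAs 2.04% to 6.76% and transfer RNAs 0.0268% to 0.0590%. Poly(A) selection takes up ribosomal and transfer RNA poorly, so these shares do not describe total RNA. mt-Co1 (ENSMUSG00000064351, chrM:5328-6872), the catalytic subunit of complex IV, ranked first with a mean of 17.9% of the chromosome M total over the 24 libraries. mt-Atp8 followed with 12.4% and mt-Atp6 with 9.95%. mt-Cytb (ENSMUSG00000064370, chrM:14145-15288), the subunit of complex III, held 9.04%. mt-Rnr1, the small-subunit ribosomal RNA, was lowest of the 15 longer RNAs with 1.44%, below mt-Nd3 with 1.74%. Neighbours in this order were often close: mt-Co2 with 9.28%, mt-Cytb with 9.04% and mt-Nd1 with 8.89% differed by less than their spread between libraries.

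**Figure D1:**
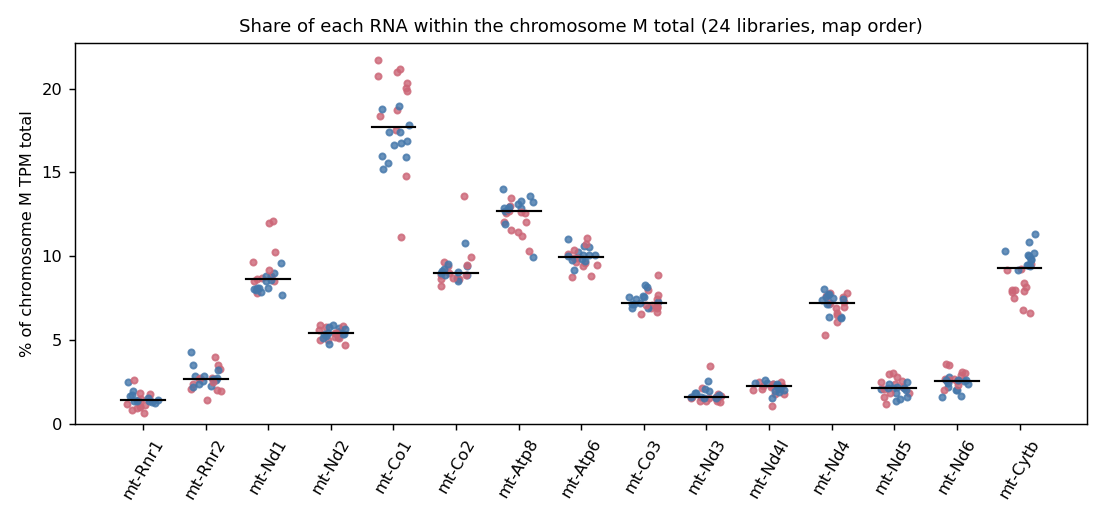
Share of each of the 13 messenger RNAs and 2 ribosomal RNAs in the chromosome M TPM total (y axis, percent), in map order along the chromosome (x axis). Each point is 1 of the 24 libraries, blue for control and red for libraries labelled Kl/Kl, and the black line is the median, so mt-Co1 stands highest and mt-Rnr1 and mt-Nd3 lowest.

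The share of the whole TPM total held by each RNA differed between groups in a shared direction. For 13 of the 15 longer RNAs the group with the lowest mean was a Kl/Kl group, and for 13 the group with the highest mean was a control group. Groups are given as mean ± SD over the 22 libraries, n = 4 except n = 3 in the Bmp2+/+ Kl/Kl groups.

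Among subunits of complex IV, the mt-Co1 share of the TPM total ran from 8.40% ± 2.44 in ∆UCS Kl/Kl to 10.0% ± 0.186 in ∆UCS controls. The share of mt-Co2, which holds the first copper site of electron entry, ran from 4.30% ± 0.440 in male Bmp2+/+ Kl/Kl to 5.20% ± 0.251 in ∆UCS controls. mt-Co3, a core structural subunit, ran from 3.42% ± 0.461 in ∆UCS Kl/Kl to 4.17% ± 0.161 in female controls. The mt-Co1 extremes were thus the 2 ∆UCS groups, and its spread in ∆UCS Kl/Kl was the widest of the 3.

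For ATP synthase, mt-Atp6, part of the proton channel, ran from 4.53% ± 0.262 in ∆UCS Kl/Kl to 5.85% ± 0.219 in female controls. mt-Atp8, a small subunit of the stator, ran from 5.45% ± 0.552 in ∆UCS Kl/Kl to 7.55% ± 0.567 in female controls. The same pair of groups marked both ends.

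Complex I takes its 7 mitochondrially encoded subunits from the Nd genes. mt-Nd1 ran from 4.33% ± 0.523 in male Bmp2+/+ Kl/Kl to 4.96% ± 1.22 in ∆UCS Kl/Kl, and mt-Nd2 from 2.50% ± 0.393 in ∆UCS Kl/Kl to 3.19% ± 0.369 in ∆UCS controls. mt-Nd4 ran from 3.08% ± 0.570 in ∆UCS Kl/Kl to 4.30% ± 0.312 in female controls, and mt-Nd4l, on the same messenger RNA, from 0.914% ± 0.315 to 1.35% ± 0.155 in the same 2 groups. mt-Nd3 ran from 0.712% ± 0.127 in male Bmp2+/+ Kl/Kl to 1.03% ± 0.264 in male Bmp2+/+ controls. mt-Nd1 departed from the common order in having its highest mean in a Kl/Kl group. mt-Nd5 and mt-Nd6 departed from it as well, with their lowest means in male Bmp2+/+ controls, at 0.916% ± 0.238 and 1.08% ± 0.162. mt-Nd5 reached 1.21% ± 0.252 in ∆UCS controls and mt-Nd6 reached 1.43% ± 0.380 in ∆UCS Kl/Kl.

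The ribosomal RNAs were lowest in female Kl/Kl and highest in female controls. mt-Rnr1 went from 0.522% ± 0.0513 to 0.960% ± 0.151, and mt-Rnr2, of the large subunit, from 1.06% ± 0.137 to 1.66% ± 0.297.

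mt-Cytb held the clearest order over the 22 libraries. Its share of the TPM total was 3.71% ± 0.922 in Kl/Kl against 5.22% ± 0.601 in control male Bmp2+/+ libraries. In females it was 3.88% ± 1.04 against 5.60% ± 0.322, and in ∆UCS males 3.74% ± 0.390 against 5.85% ± 0.615. In each of the 3 strata the highest Kl/Kl library (4.56%, 5.07% and 4.15%) lay below the lowest control (4.76%, 5.14% and 5.35%). The library against its labelled sex held 4.69% in male Bmp2+/+ Kl/Kl, still below every control. In female Kl/Kl it held 5.51%, so with all 24 libraries the female groups overlapped. How many of all genes separate on this scale was not counted.

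Summed over the 34 genes, the mitochondrial share was lower in Kl/Kl than in control in the ∆UCS males, and differences of the same sign in the other 2 strata did not pass the test. Which stratum passed depended on the scale: as a log2 level under median-of-ratios scaling on nuclear genes the differences were -0.37, -0.75 and -0.63 in male Bmp2+/+, female Bmp2+/+ and ∆UCS libraries (exact permutation p = 0.457, 0.0286 and 0.143), with no overlap in females. In ∆UCS males the controls held 61.2%, 58.2%, 56.7% and 53.5% of the TPM total and the Kl/Kl libraries 40.9%, 50.1%, 52.5% and 45.2%. The highest Kl/Kl library lay below the lowest control. The means were 57.4% ± 3.20 and 47.2% ± 5.20, a difference of -10.3 percentage points (SE 3.05, two-sided exact permutation p = 0.0286, the smallest that 4 against 4 allows). As a share of estimated reads in place of TPM the ∆UCS difference was -6.74 percentage points (exact permutation p = 0.0857), so that call depended on the per-length scale. Without any 1 of the 4 controls, or without Kl/Kl replicate 1, the exact permutation p was 0.0571, with differences from -8.17 to -11.6. In whole aorta, fewer cells rich in mitochondria and less mitochondrial RNA per cell cannot be told apart.

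In female Bmp2+/+ libraries the controls held 52.2%, 57.1%, 59.99% and 59.4% and the Kl/Kl libraries 44.9%, 48.3% and 54.8%, beside 57.8% in the library against its labelled sex. The groups overlapped, since 1 Kl/Kl library lay above the lowest control. The difference was -7.83 percentage points (SE 3.38, exact permutation p = 0.0857), and -5.72 with all 24 libraries (exact permutation p = 0.2).

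In male Bmp2+/+ libraries the controls held 47.9%, 58.6%, 47.3% and 55.5% and the Kl/Kl libraries 45.7%, 55.8% and 40.2%, beside 51.2% in the library against its labelled sex. The ranges lay over each other for most of their length. The difference was -5.12 percentage points (SE 5.36, exact permutation p = 0.371), and -4.13 with all 24 (exact permutation p = 0.429). Its sign differed between library sets: in set 1 the 2 Kl/Kl libraries averaged 3.09 points above the 2 controls (exact permutation p = 1), and in set 2 the single Kl/Kl library lay 16.9 points below the 2 controls (exact permutation p = 0.333, the smallest it allows).

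**Figure D2:**
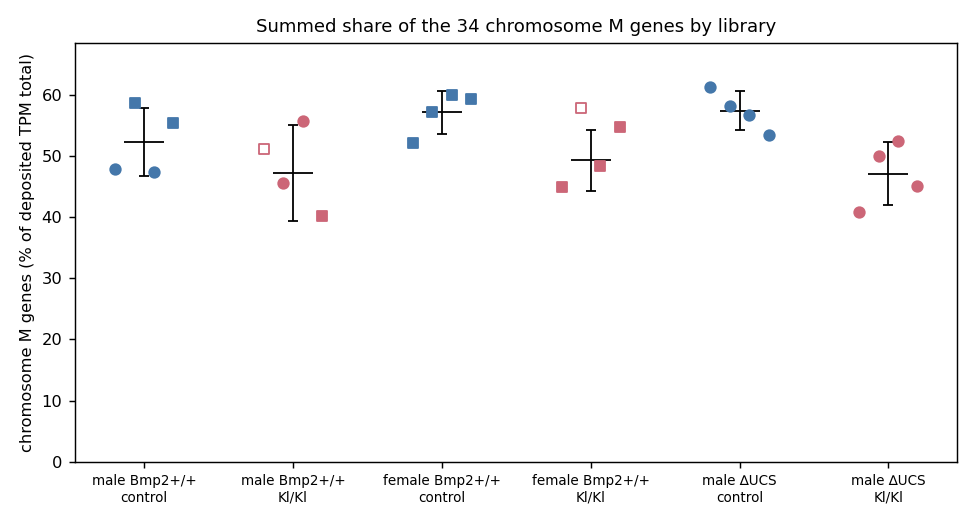
Summed share of the 34 chromosome M genes in the deposited TPM total (y axis, percent) by group (x axis), 1 point a library. Blue is control and red Kl/Kl, circles are library set 1 and squares set 2, open symbols are the 2 libraries against their labelled sex, and lines with bars are mean ± SD of the others. The ∆UCS groups, 40.9% to 52.5% against 53.5% to 61.2%, do not overlap.

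Dividing each RNA by the chromosome M total of its own library removes the nuclear genes from the comparison and leaves the balance among mitochondrial RNAs. In this balance mt-Cytb was lower in Kl/Kl in all 3 strata, mt-Co1 was higher in females with male Bmp2+/+ libraries at the same size, and most other RNAs overlapped between groups. For the 15 longer RNAs in 3 strata, 45 exact permutation tests were made and their p-values are not adjusted. Of 15 RNAs, 1 had p under 0.05 in male Bmp2+/+, 5 in female Bmp2+/+ and 1 in ∆UCS libraries. Over all 9933 genes tested, divided by the same total, 3.12%, 26.2% and 14.2% had such a p, so these counts are not results about the 15 RNAs as a set. With all 24 libraries the counts were 1, 2 and 1, beside 0.594%, 11.2% and 14.2% of all genes.

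In male Bmp2+/+ libraries mt-Cytb made up 10.0%, 10.3%, 10.1% and 9.50% of the chromosome M total in controls and 8.39%, 8.18% and 6.79% in Kl/Kl. All Kl/Kl values lay below all controls, and the library against its labelled sex was in between, at 9.15%. The difference was -2.18 percentage points (SE 0.529, exact permutation p = 0.0286, the smallest that 3 against 4 allows), and -1.84 with all 24 libraries (exact permutation p = 0.0286). Within library set 1 it was -1.74 and within set 2 -3.11 (exact permutation p = 0.333 each, the smallest these allow). As a log2 ratio to the median messenger RNA of each library, the male Bmp2+/+ groups overlapped in mt-Cytb. Controls were at 0.434, 0.440, 0.305 and 0.200 and Kl/Kl libraries at 0.220, 0.064 and 0. By that ratio the female and ∆UCS groups stayed separate over the 22 libraries.

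In female Bmp2+/+ libraries mt-Cytb made up 9.84%, 10.2%, 9.39% and 9.79% in controls and 7.52%, 6.59% and 9.25% in Kl/Kl. The groups did not overlap, but Kl/Kl replicate 4 was only just below the lowest control. The difference was -2.01 percentage points (SE 0.797, exact permutation p = 0.0286). The library against its labelled sex held 9.52%, inside the control range, and with all 24 libraries the groups overlapped and the difference was -1.58 (exact permutation p = 0.0571).

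In ∆UCS males mt-Cytb made up 10.8%, 9.20%, 9.46% and 11.3% in controls and 7.98%, 7.87%, 7.90% and 7.99% in Kl/Kl. The Kl/Kl libraries were nearly equal, with an SD of 0.0598 against 1.03 in controls, and did not overlap them. The difference was -2.26 percentage points (SE 0.514, exact permutation p = 0.0286). Between strata the differences were close: ∆UCS minus Bmp2+/+ males was -0.08 points (SE 0.738) and females minus males +0.17 (SE 0.957), differences between strata that were not tested.

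mt-Co1 moved the other way in the Bmp2+/+ libraries. Female controls held 15.6%, 16.6%, 15.9% and 17.4% and female Kl/Kl libraries 20.0%, 21.7% and 18.7%, beside 17.5% in the library against its labelled sex. The groups did not overlap with or without that library. The difference was +3.75 percentage points (SE 0.957, exact permutation p = 0.0286), and +3.10 with all 24 (exact permutation p = 0.0286).

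Male Bmp2+/+ controls held 18.9%, 17.8%, 15.2% and 16.0% mt-Co1 and Kl/Kl libraries 20.97%, 20.7% and 19.8%. These did not overlap either, while the library against its labelled sex, at 14.8%, was below every control. The difference was +3.53 points (SE 0.920) with an exact permutation p of 0.0571, which misses 0.05 although the groups are separate because 1 other split of these 7 libraries differed by more in the opposite direction. With all 24 it was +2.09 (exact permutation p = 0.257). Within set 1 it was +3.77 and within set 2 +2.95.

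In ∆UCS males the mt-Co1 values were 16.7%, 16.9%, 17.4% and 18.8% in controls and 20.4%, 21.2%, 18.4% and 11.1% in Kl/Kl. Kl/Kl replicate 4 lay far below every other library and made the group the most spread of the 6. The difference was +0.30 points (SE 2.34, exact permutation p = 0.971), and +2.51 without replicate 4 (exact permutation p = 0.0857).

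The log2 ratio of mt-Cytb to mt-Co1 sets the pair side by side in 1 value a library. This ratio was not among the planned tests. Its RNAs had the largest differences of each sign in the Bmp2+/+ libraries above, so its p-values add no separate support. Kl/Kl differed from control by -0.64 in male Bmp2+/+ (SE 0.10) and by -0.64 in female Bmp2+/+ libraries (SE 0.21), with an exact permutation p of 0.0286 in each and no overlap. In ∆UCS males the difference was -0.34 (SE 0.23, exact permutation p = 0.171). With all 24 libraries the male Bmp2+/+ difference was -0.46 (exact permutation p = 0.114) and the female one -0.52 (exact permutation p = 0.0286). Group means of this ratio differed little between controls, at -0.76, -0.74 and -0.78.

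**Figure D3:**
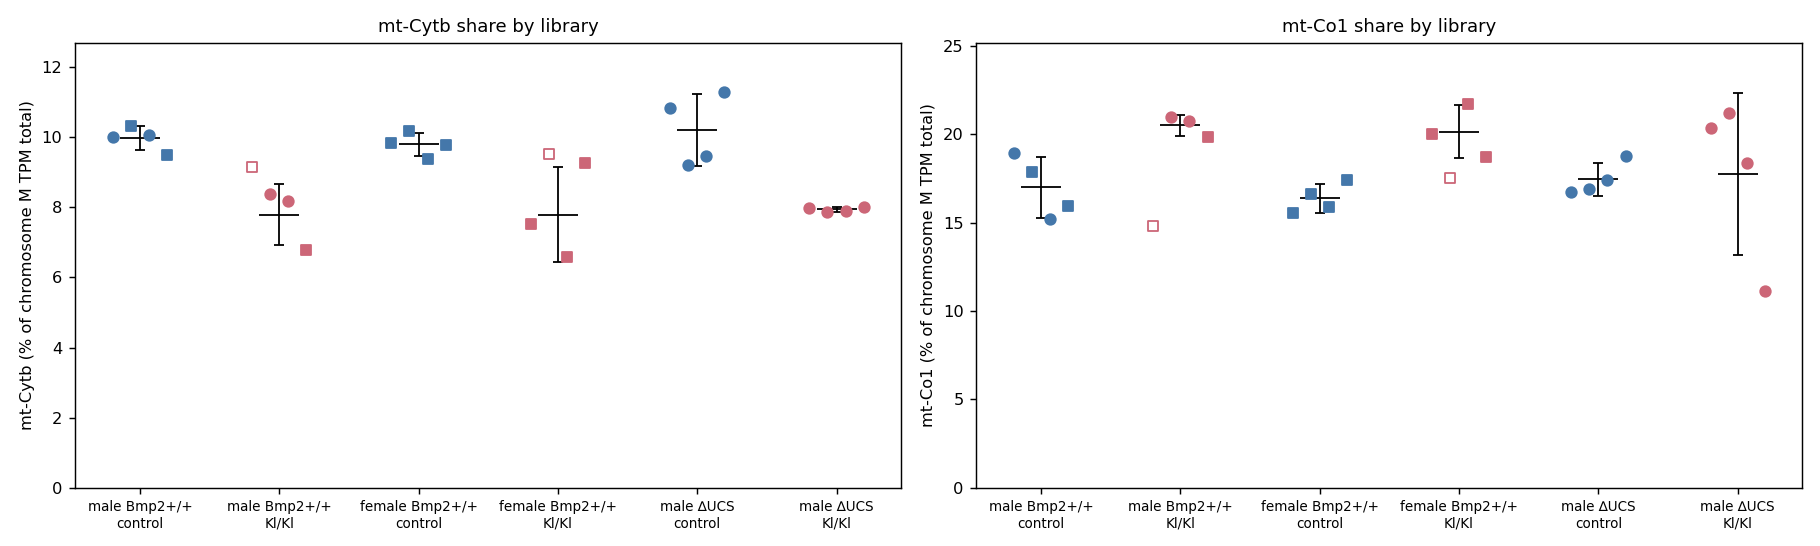
mt-Cytb (left) and mt-Co1 (right) as percent of the chromosome M TPM total (y axes, from 0) by group (x axes), 1 point a library. Blue is control and red Kl/Kl, circles are library set 1 and squares set 2, open symbols are the 2 libraries against their labelled sex, and lines with bars are mean ± SD of the others. mt-Cytb in ∆UCS Kl/Kl sits between 7.87% and 7.99%, and the lowest mt-Co1 point, 11.1%, is ∆UCS Kl/Kl replicate 4.

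Counted over every gene tested, separation of the groups was uncommon in the direction of mt-Cytb. Division by the chromosome M total raises nuclear genes in Kl/Kl. On that scale the median log2 change of all genes was 0.20, 0.43 and 0.44 in male Bmp2+/+, female Bmp2+/+ and ∆UCS libraries. A low share downward therefore follows in part from the scale, and it gives the members named here no support. With each gene divided by the chromosome M total, 0.413% of the 9933 genes tested had Kl/Kl wholly below control in male Bmp2+/+ libraries, and mt-Cytb and mt-Tf were 2 of them. In females the share was 0.866%, with 5 members (mt-Cytb, mt-Atp6, mt-Nd3, mt-Rnr1 and mt-Rnr2). In ∆UCS males it was 0.624%, with mt-Cytb alone. With all 24 libraries the shares were 0.161% in male Bmp2+/+ (mt-Cytb), 0.252% in female Bmp2+/+ (mt-Atp6) and 0.624% in ∆UCS libraries (mt-Cytb).

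Separation upward was common across all genes on the same scale, which raises nuclear genes, so the members' counts in that direction are near or below that background. Kl/Kl lay wholly above control for 3.5% of genes in male Bmp2+/+ libraries (1 member, mt-Co1), 30.6% in females (4 members, mt-Co1, mt-Nd1, mt-Tm and mt-Ts1) and 13.5% in ∆UCS males (0 members). With all 24 libraries it was 0.433% in male Bmp2+/+ (0 members), 10.9% in female Bmp2+/+ (mt-Co1 and mt-Tm) and 13.5% in ∆UCS libraries (0 members).

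Of the ribosomal RNAs, mt-Rnr1 in females was 1.69%, 1.62%, 1.97% and 1.43% in controls and 1.04%, 1.18% and 0.959% in Kl/Kl, with no overlap. The difference was -0.61 percentage points of the chromosome M total (SE 0.129, exact permutation p = 0.0286). It was -0.44 in male Bmp2+/+ (exact permutation p = 0.514) and +0.02 in ∆UCS males (exact permutation p = 1). With the library against its labelled sex, at 1.79%, the female difference was -0.43 (exact permutation p = 0.114). mt-Rnr2 in females was separate as well, at -0.75 points (exact permutation p = 0.0571).

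Both ribosomal RNAs together, as a log2 ratio to the 13 messenger RNAs, differed by -0.53 in female Kl/Kl (SE 0.13, exact permutation p = 0.0286, no overlap). That difference was -0.34 with all 24 libraries (exact permutation p = 0.171). It was -0.44 in male Bmp2+/+ (SE 0.42, exact permutation p = 0.514) and -0.03 in ∆UCS males (SE 0.29, exact permutation p = 0.943). In male Bmp2+/+ libraries set 2 alone gave +0.09.

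mt-Nd1, next to mt-Rnr2 on the map and a subunit of the membrane arm of complex I, took a higher share in female Kl/Kl by 0.91 points (SE 0.356, exact permutation p = 0.0286). Female Kl/Kl libraries held 8.67%, 9.64% and 8.53% and controls 8.12%, 7.87%, 8.09% and 8.06%, without overlap, while the library against its labelled sex held 7.80%. The difference was +0.67 in male Bmp2+/+ (exact permutation p = 0.343) and +1.95 in ∆UCS males (SE 1.03, exact permutation p = 0.171). In ∆UCS Kl/Kl the values parted into 8.53% and 9.15% in replicates 1 and 2 and 12.1% and 11.98% in replicates 3 and 4.

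mt-Atp6 took a lower share in female Kl/Kl, with a difference of -0.68 points (SE 0.142, exact permutation p = 0.0286), with Kl/Kl at 9.61%, 9.62% and 9.46% and controls at 10.6%, 10.3%, 10.0% and 10.1%. The library against its labelled sex held 9.43% and left the groups separate (-0.72, exact permutation p = 0.0286). In male Bmp2+/+ the difference was -0.28 (exact permutation p = 0.486) and in ∆UCS males -0.10 (exact permutation p = 0.857). mt-Nd3 was also separate in females, with a difference of -0.23 points (exact permutation p = 0.114). mt-Nd6, the messenger RNA of the other strand, had differences of +0.43, +0.41 and +0.68 in the 3 strata, with exact permutation p of 0.229, 0.229 and 0.114. Its row may also hold reads of the plus strand, which could not be separated here.

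**Figure D4:**
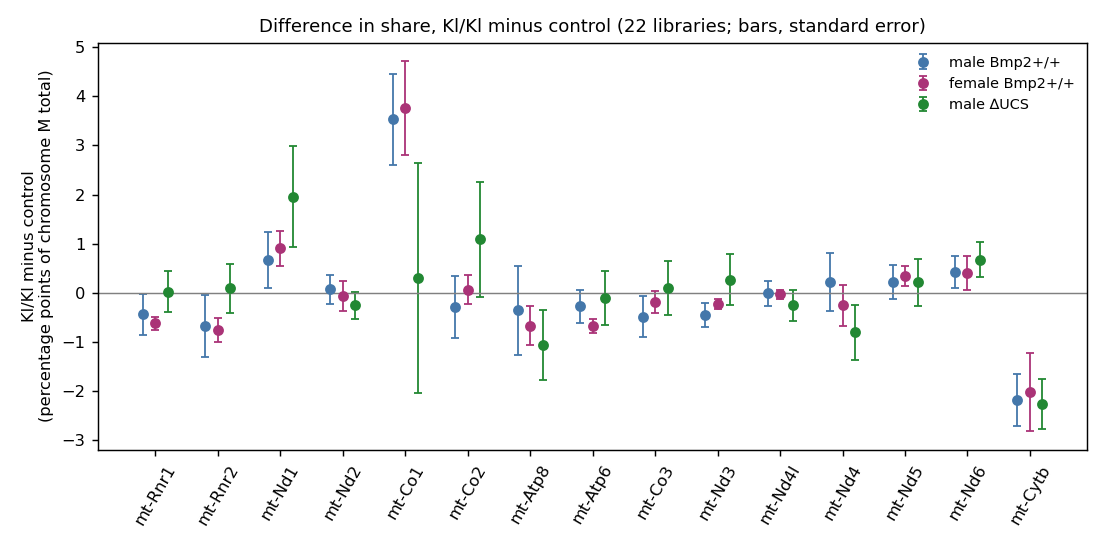
Difference in share of the chromosome M total, Kl/Kl minus control (y axis, percentage points), for 15 RNAs in map order (x axis) in male Bmp2+/+ (blue), female Bmp2+/+ (purple) and ∆UCS males (green). Points are differences of means over the 22 libraries and bars are their standard errors. mt-Cytb lies between -2.01 and -2.26 in the 3 strata, and mt-Co1 at +3.53, +3.75 and +0.30.

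∆UCS Kl/Kl replicate 4 had an unlike balance. Besides 11.1% mt-Co1, it held 13.6% mt-Co2 where the other 3 held 8.69% to 9.45%, and 3.45% mt-Nd3 where they held 1.35% to 1.52%. Its mt-Rnr1 share was 2.61% and the others held 0.786% to 1.13%. Its mt-Cytb share was 7.99% and theirs 7.87% to 7.98%. Without this library the mt-Rnr1 difference in ∆UCS males was -0.39 percentage points (exact permutation p = 0.0286), against +0.02 with it. The same library had the highest summed cardiomyocyte markers of all (4087 TPM after median-of-ratios scaling), the highest brown adipocyte markers (1883) and the highest smooth muscle markers (844), and their part in its balance was not tested.

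Across the 22 libraries the RNAs varied unequally within the chromosome M total. The coefficient of variation was 5.70% for mt-Atp6, 6.40% for mt-Nd2, 13.8% for mt-Co1, 14.2% for mt-Cytb, 24.6% for mt-Rnr2 and 33.8% for mt-Rnr1. In log2 TPM the pairs that went together most were mt-Atp6 with mt-Co3 (Pearson r = 0.924), which abut on 1 strand, mt-Rnr1 with mt-Rnr2 (0.893) and mt-Atp6 with mt-Cytb (0.882). mt-Co1 with mt-Nd3 had the lowest r, -0.422. These describe libraries that share a fixed total, differ in depth and span 6 groups.

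Level by level, limma on log2(TPM + 1) over 9933 genes called few members. Of the 34, 26 passed the filter (TPM of at least 1 in 4 or more libraries): 13 messenger RNAs, 2 ribosomal RNAs and 11 transfer RNAs. In male Bmp2+/+ libraries 1.1% of all genes had an adjusted p under 0.05 in Kl/Kl against control, and 1 of the 26 members did, the phenylalanine transfer RNA mt-Tf. In females 2.6% of genes and 0 members passed, and in ∆UCS males 0.644% and 0 members. Genes called higher and lower numbered 103 and 6, 256 and 2, and 53 and 11, and with median-of-ratios scaling 147 and 33, 208 and 185, and 70 and 54, with 0 members. At an unadjusted p under 0.05 there were 2, 4 and 8 of the 26 members, beside 11%, 24.8% and 16.8% of all genes. These are small counts of RNAs that share 1 total, so they are not results about the members as a set. limma voom on estimated reads called 0 of 21 members in each. Over its 22189 genes it called 303 higher and 36 lower, 458 and 245, and 164 and 97. With all 24 libraries no gene passed in any of the 3 strata (0%), and 2, 2 and 8 members had an unadjusted p under 0.05, beside 6.07%, 15.1% and 16.4% of all genes. With each library scaled to its chromosome M total, 0.886%, 2.03% and 0.493% of genes passed, and of the members mt-Tf in male Bmp2+/+ libraries.

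On this scale mt-Cytb had log2 changes of -0.53 (SE 0.17), -0.56 (SE 0.17) and -0.64 (SE 0.16) in male Bmp2+/+, female Bmp2+/+ and ∆UCS libraries, with limma adjusted p of 0.196, 0.0791 and 0.0658. It therefore missed the threshold in each stratum in the test across all genes. In ∆UCS males it passed with a filter at TPM of at least 5 (limma adjusted p = 0.0389) and without the library set as a term (limma adjusted p = 0.0481), and its adjusted p over all alternatives ran from 0.0389 to 0.278. It also passed in male Bmp2+/+ without Kl/Kl replicate 3 (limma adjusted p = 0.0432, range 0.0432 to 0.991) and in females without Kl/Kl replicate 4 (limma adjusted p = 0.0143, range 0.0143 to 0.340). Without male Kl/Kl replicate 4 the log2 change of mt-Cytb in male Bmp2+/+ was -0.19. The median log2 change of the 26 members was -0.16, -0.20 and -0.17, against 0.09, 0.29 and 0.26 over all genes. With median-of-ratios scaling, which moves the median of all genes to -0.02, -0.04 and 0.03, the members' median was -0.32, -0.64 and -0.51. On that scale 24, 24 and 22 of the 26 had a negative change. In the main fit 20, 19 and 17 did, and scaled to the chromosome M total 14, 14 and 9. The share of all genes with a negative change is not given here, and the 26 share 1 total, so these counts are not results about the members.

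mt-Tf rests on very few reads. Its sequence (chrM:1-68, plus strand) is shown as the first gene of the chromosome and the sole member that passed.
mt-Tf: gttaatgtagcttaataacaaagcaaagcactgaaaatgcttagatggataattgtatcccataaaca
Male Bmp2+/+ controls had 4, 3, 4 and 4 estimated reads of mt-Tf and Kl/Kl libraries 0, 1 and 0, beside 4 in the library against its labelled sex. The log2 change was -1.22 (SE 0.27, limma adjusted p = 0.0276), and -0.82 with all 24 libraries (limma adjusted p = 0.722). Over all alternatives the limma adjusted p of mt-Tf ran from 0.0180 to 0.722, and it missed 0.05 without each of 6 of the 7 libraries in turn, the exception being Kl/Kl replicate 3.

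The transfer RNA rows were low throughout. Of the 19, 8 fell below the filter and 12 had 0 reads in at least 1 library. Transfer RNAs on the minus strand passed in 7 of 8 cases and those on the plus strand in 4 of 11. Whether the minus-strand rows hold reads of plus-strand precursors is not known here. mt-Ts1 had the most, 79.0 to 212 estimated reads per library with a median of 129, followed by mt-Te with 11 to 66 and mt-Tl1, between mt-Rnr2 and mt-Nd1, with 8 to 30. mt-Ts1 took 0.0239% ± 0.000949 of the chromosome M total in female Kl/Kl and 0.0186% ± 0.00279 in controls, which did not overlap (exact permutation p = 0.0571), while with all 24 libraries they did. In male Bmp2+/+ and ∆UCS libraries the mt-Ts1 ranges overlapped (exact permutation p = 0.6 and 0.143). mt-Te and mt-Tl1 overlapped between groups in all 3 strata, with exact permutation p from 0.114 to 1. mt-Tm, named after its values were seen, was separate in females, on at most 3 reads in a control or kept Kl/Kl library.

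Some genes of chromosome M have near-identical copies in the nuclear genome. On chromosome 1, minus strand, 7 annotated genes between 24650616 and 24655278 (mm39 as the deposited table gives them) repeat mt-Co1 to mt-Nd4 in order. Gm28661, Gm10925, Gm28437, Gm10222 and Gm28439 had 0 mismatches to mt-Co2, mt-Atp6, mt-Co3, mt-Nd4l and mt-Nd4 in the GENCODE M21 transcripts. None of the 7 is a copy of mt-Cytb, mt-Nd1, mt-Nd2, mt-Nd5, mt-Nd6 or a ribosomal RNA. mt-Atp8 has no gene of its own among them, but Gm10925 holds the 43 bases it shares with mt-Atp6, and copies without an annotated gene were not looked for. At an identity of at least 90%, 17 annotated nuclear genes matched 11 members. Off chromosome 1 they include Gm11410 (mt-Cytb), Gm13339 (mt-Nd2), Gm11407 and Gm4076 (mt-Nd5) and Gm11408 (mt-Nd6). Their reads were 0.0029%, 0.0035%, 0.0035%, 0.0081% and 0.0016% of those of the member. Gm28438 differs from mt-Nd3 by T3C and Gm29216 from mt-Co1 by 6 substitutions, of which the last is A1066T, with positions counted from 1 at the first base of the mitochondrial gene. Both are shown at the substitution, in capitals.
mt-Nd3: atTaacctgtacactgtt
Gm28438: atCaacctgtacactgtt
mt-Co1: ggtctaaccggaAttgttttatccaact
Gm29216: ggattggcaggaTttgttttatccaact

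Reads in the copies were close to those of their mitochondrial partners for some genes and near 0 for others. Gm28661 had 99.6% to 99.9% of the reads of mt-Co2, Gm10925 99.5% to 99.8% of those of mt-Atp6 and Gm28437 99.9% to 100% of those of mt-Co3. Gm28438 had more reads than mt-Nd3, 140% to 176%, and Gm10222 had 72.6% to 98.4% of mt-Nd4l. Gm28439, also without a mismatch, had at most 0.734% of the reads of mt-Nd4. How reads that match both places were counted is not given in the sources used here, so the levels of mt-Co1, mt-Co2, mt-Atp8, mt-Atp6, mt-Co3, mt-Nd3, mt-Nd4l and mt-Nd4 are uncertain by what the copies hold. The 7 copies held 12.8% to 20.5% of the TPM total.

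With the copies' reads added to their partners, chromosome M held 53.6% to 80.4% of the TPM total. The summed differences, Kl/Kl minus control, were then -7.40, -10.8 and -12.4 percentage points (exact permutation p = 0.286, 0.0857 and 0.0286). mt-Cytb was lower in Kl/Kl in each stratum, with differences of -1.58, -1.48 and -1.79 points of the enlarged total (exact permutation p = 0.0286 each, no overlap). mt-Co1 was at +2.91, +3.02 and +0.50 (exact permutation p = 0.0571, 0.0286 and 0.857).

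Gm29216 and Gm10222 are given by library. Gm29216 had 0.103% to 16.4% of the reads of mt-Co1, with a median of 0.998%, and was high in male Bmp2+/+ control replicate 3 (11.3%), male Bmp2+/+ Kl/Kl replicates 1 and 3 (7.65% and 5.56%) and ∆UCS Kl/Kl replicate 4 (16.4%). The last is the library with the lowest mt-Co1 share. The Gm10222 to mt-Nd4l percentage in ∆UCS males was 98.4%, 98.3%, 95.2% and 92.3% in controls and 79.1%, 85.3%, 80.1% and 76.5% in Kl/Kl, without overlap (difference -15.8, exact permutation p = 0.0286). It was 81.6% in female controls and 78.1% in female Kl/Kl (exact permutation p = 0.0571), and 81.7% and 78.6% in male Bmp2+/+ (exact permutation p = 0.943). Among male Bmp2+/+ controls 1 library, replicate 2, had 98.3%, a level otherwise found in ∆UCS controls.

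**Figure D5:**
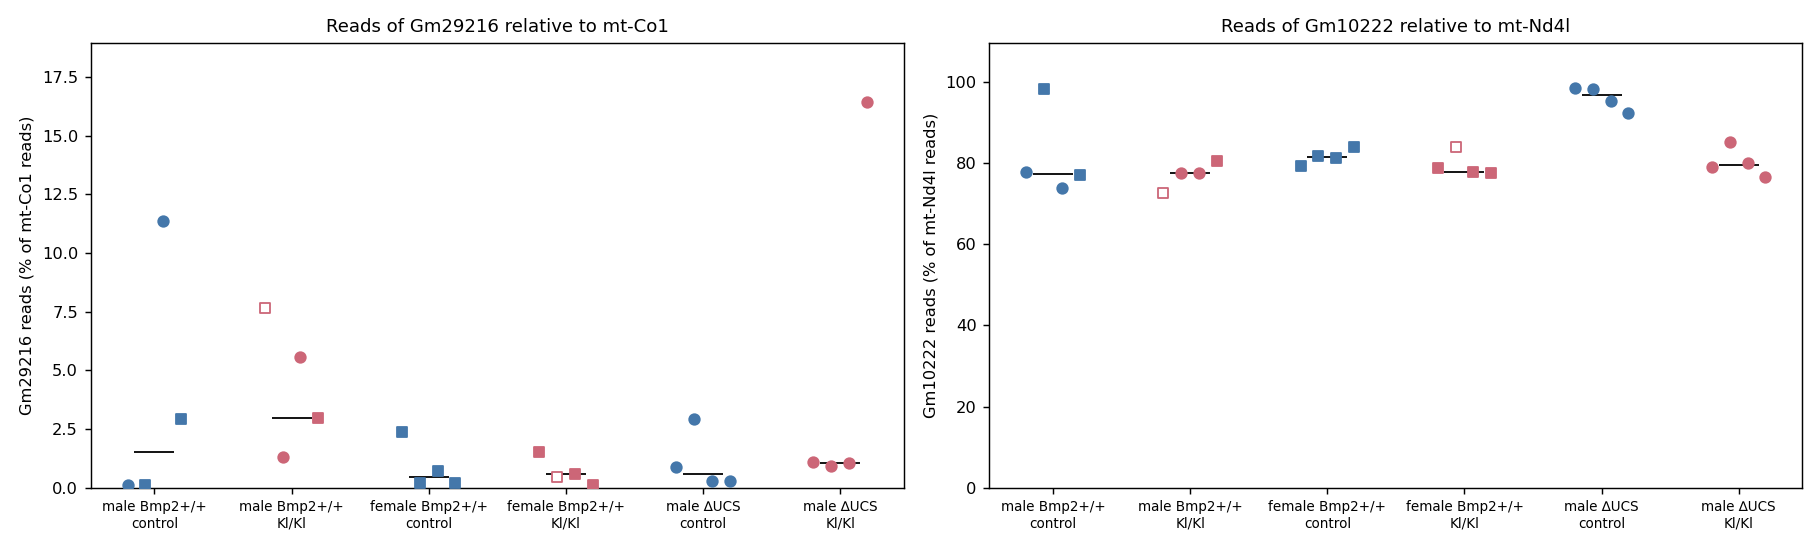
Estimated reads of the chromosome 1 copies Gm29216 (left, percent of mt-Co1 reads) and Gm10222 (right, percent of mt-Nd4l reads) by group (x axes), 1 point a library. Blue is control and red Kl/Kl, circles are library set 1 and squares set 2, open symbols are the 2 libraries against their labelled sex, and lines are medians of the others. Gm29216 reaches 16.4% in ∆UCS Kl/Kl replicate 4, and the ∆UCS controls stand at 92.3% to 98.4% for Gm10222.

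Nuclear genes that serve these RNAs showed no called change. Of 18 genes for copying and transcribing mitochondrial DNA 13 were tested, and 0 were called in any of the 3 strata by limma, with medians of 0.06, 0.05 and 0.13 on the log2 scale. Tfam, which packages mitochondrial DNA and starts transcription, had log2 changes of 0.13, 0.23 and 0.10. Of 28 genes for processing, stability and decay of mitochondrial RNA 21 were tested and 0 called, with medians of -0.14, 0.02 and 0.03. With median-of-ratios scaling 0 were called as well and all 6 medians were negative, at -0.05, -0.24 and -0.11 for the first list and -0.22, -0.31 and -0.20 for the second. On that scale the sum of the first list did not overlap in females, with 29.7 to 31.4 TPM in controls and 21.7 to 28.1 in Kl/Kl, and 26.6 in the library against its labelled sex. Hsd17b10, a subunit of the enzyme that cuts transfer RNAs from the precursors, had the highest median TPM of the list and log2 changes of 1.15, 0.70 and 0.77 (limma adjusted p = 0.0543, 0.142 and 0.129). Trmt10c, its partner, was at -0.06, 0.09 and 0.09. Fastk, with a higher mean TPM than Trmt10c, was at -0.92 in male and -0.49 in female Bmp2+/+ libraries (limma adjusted p = 0.504 and 0.515).

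Markers of other cell types moved with the groups, and their part in the mitochondrial differences was not tested. Of 7 macrophage markers 5 were tested, and 4, 5 and 4 rose in Kl/Kl (limma), Cd68 by 3.36, 3.97 and 2.89 on the log2 scale. Their summed level after median-of-ratios scaling was 33.8 to 167 TPM in male Bmp2+/+ controls and 350 to 487 in Kl/Kl, 45.4 to 90.5 and 374 to 653 in females, and 37.5 to 84.5 and 197 to 343 in ∆UCS males. Brown adipocytes are dense in mitochondria, and of their 8 markers 7 were tested and 1, Otop1, named after its values were seen, fell in male Bmp2+/+ Kl/Kl (log2 change -1.47, limma adjusted p = 0.0306). With median-of-ratios scaling 1 of the 7 fell in each stratum. Ucp1, their uncoupling protein, had log2 changes of -1.90, -1.95 and -1.40 (limma adjusted p = 0.301, 0.127 and 0.289). The brown adipocyte sum was 603 to 1336 TPM in male Bmp2+/+ controls and 224 to 721 in Kl/Kl, 786 to 1027 and 158 to 626 in females, and 810 to 1233 and 226 to 1883 in ∆UCS males, so it did not overlap in females alone.

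Of 12 cardiomyocyte markers 10 were tested and 0 called, with sums of 339 to 1147 and 242 to 2511 TPM in male Bmp2+/+, 257 to 513 and 272 to 3365 in female, and 48.0 to 894 and 67.2 to 4087 in ∆UCS controls and Kl/Kl. Of 7 smooth muscle markers 6 were tested and 0 called, and Tagln and Acta2, their contractile markers, had at least 39.9 and 24.3 unscaled TPM in every library. Of 5 airway markers 4 were tested, and 1, Scgb3a1, rose in female and ∆UCS Kl/Kl. The endothelial, fibroblast, adipocyte, skeletal muscle and erythroid lists had 0 genes called. Of these and the airway list, 3 sums did not overlap in a stratum. Skeletal muscle in females was 152 to 497 TPM in controls and 50.8 to 93.4 in Kl/Kl, airway in females 332 to 1621 and 1949 to 2538, and endothelial in ∆UCS males 7.16 to 9.26 and 3.28 to 6.61.

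The other contrasts of the design showed no called member. The summed share was 5.07 percentage points higher in ∆UCS than in Bmp2+/+ control males (exact permutation p = 0.2) and differed by -0.07 points between Kl/Kl males (exact permutation p = 1). Female controls were 4.84 points above male Bmp2+/+ controls (exact permutation p = 0.2), and female Kl/Kl 2.13 points above male (exact permutation p = 0.8, smallest possible 0.1). The Kl/Kl difference was 5.14 points more negative in ∆UCS than in Bmp2+/+ males (difference of differences -5.14, SE 6.16) and 2.71 more negative in females (-2.71, SE 6.34), each within its error. limma called 0% and 0% of genes for ∆UCS against Bmp2+/+ in control and in Kl/Kl males, 0.0302% and 0.0302% for female against male, and 0% and 0% for the 2 interactions, with 0 members in all 6 and 2, 0, 2, 1, 1 and 1 members at an unadjusted p under 0.05, beside 2.17%, 1.81%, 0.745%, 1.74%, 2.06% and 1.43% of all genes. Within the chromosome M total, 0 of 15 RNAs had an exact permutation p under 0.05 in these 4 two-group contrasts over the 22 libraries. For female against male Kl/Kl that 0 was fixed in advance, since 3 against 3 libraries cannot go below 0.1. In that contrast 2 RNAs, mt-Atp6 and mt-Nd4l, did not overlap. With all 24 libraries the same 2 had an exact permutation p under 0.05. The share of all genes doing so in this contrast is not given here, so these counts are not results about the members.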

How the data were processed

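Poly(A) RNA of 24 mouse aortas was sequenced, and the authors deposited 1 table of TPM per gene. The submitters' processing notes name Partek and mm39; the sources used here do not give the aligner, the counting rule or the treatment of reads that match several places. Each column summed to 482073. The values follow reads plus 0.0001, divided by the span of the gene from start to end and scaled, so reads were estimated by inverting this. Between 0.5 and 20 estimated reads, 73.2% of values lay within 0.05 of a whole number.

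Groups came from the labels. Shares of the TPM total and of the chromosome M total were compared with two-sided exact permutation tests. Levels were tested with limma 3.58.1 in R 4.3.3 on log2(TPM + 1) over 9933 genes with TPM of at least 1 in at least 4 libraries, with 6 groups and library set as terms, a mean-variance trend and Benjamini-Hochberg adjustment over all genes. The limma steps were tested on simulated data. The main results left out the 2 libraries whose sex-specific genes went against the label.

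The members and gene lists were chosen with earlier results of these data known. Named with values were the 13 messenger and 2 ribosomal RNAs, the 3 transfer RNAs with the highest mean share and any transfer RNA whose groups did not overlap in 1 direction in all 3 strata (none), and up to 3 genes of highest mean TPM per nuclear list. Genes outside this rule are said to be so or were met in a count. Alternatives changed the libraries, filter, pseudocount, scaling, covariates and the treatment of the chromosome 1 copies, the last chosen after seeing the data.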

Additional observations from a re-analysis of the deposited data

Results flagged for a closer look

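Of 102 sets of 4 or more libraries examined, 1 for each RNA or summed quantity in each group, 6 held a library far from the others of its group by Dixon's criterion, a number that chance alone can give. The values are shares of the chromosome M total, and what set these libraries apart was not tested. ∆UCS Kl/Kl replicate 4 was set apart in mt-Co2, at 13.6165% where the others held 8.69% to 9.45%. The same library was set apart in mt-Nd3, at 3.44817%, with the others at 1.35% to 1.52%. ∆UCS control replicate 2 held 1.94791% mt-Nd3, above 1.54% to 1.57% in its group. Male Bmp2+/+ Kl/Kl replicate 4 held 10.2622% mt-Nd1, with the others at 8.63% to 8.83%. Female Bmp2+/+ Kl/Kl replicate 1 held 3.51492% mt-Nd6, above the 2.57% to 2.68% of the others. ∆UCS control replicate 4 held 1.6196% mt-Nd6, below the 2.45% to 2.61% of its group.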

How the results depend on the processing

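Precision was limited by group size, since 3 against 3 libraries cannot give an exact permutation p below 0.1 and 2 against 4 cannot go below 0.0667, so most calls lost on leaving out a library say nothing about stability. Depth limits only the transfer RNAs. The summed share in male Bmp2+/+ turned to +3.091 points in library set 1 alone. In females it passed as a log2 level under median-of-ratios scaling (-0.7497). In ∆UCS males it missed the threshold as a share of reads (-6.738) and under median-of-ratios scaling (-0.6263), and between Kl/Kl males the ∆UCS difference became +0.2466 with copies added. The ratio of ribosomal to messenger RNA in log2 was +0.09219 in male set 2 alone and -0.3362 in females with all 24 libraries, where it missed the threshold. As a log2 ratio to the median messenger RNA, 0 of the 15 RNAs passed in male Bmp2+/+, so mt-Cytb missed the threshold there. As shares, 2 passed in females with all 24 libraries. mt-Atp6 changed sign in male Bmp2+/+ with all 24 libraries (+0.001192) and as that log2 ratio (+0.07438), and in ∆UCS males as that ratio (+0.04635). mt-Rnr1 in ∆UCS males was -0.07544 as that ratio and -0.01461 with copies added. limma called 0 chromosome M genes in male Bmp2+/+ with all 24 libraries, a pseudocount of 0.1, no filter, a filter at TPM of 5, median-of-ratios scaling, voom, and only the 2 groups compared. All genes called higher and lower there numbered 0 and 0, 102 and 6, 125 and 4, 46 and 2, 147 and 33, 303 and 36, and 14 and 1. These are of 9933 genes, except 32561 without a filter, 3704 with the filter at 5 and 22189 for voom. It called 1 in females with only the 2 groups compared (6.24% of all genes), and 1 in ∆UCS males with the filter at 5 (8.64%) and without library set (0.997%). The cause of these changes was not tested. 

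Replicate numbers did not pair the libraries: correlations of same-numbered deviations were 0.054 to 0.147 in male Bmp2+/+, -0.141 to 0.0132 in females and -0.477 to 0.307 in ∆UCS males. Another pairing is possible, since consecutive numbers in the female library names alternate control and Kl/Kl at equal ages. That pairing was not examined, and the replicate numbers do not follow it. With the replicate block the ∆UCS summed share was -10.26 (exact permutation p = 0.125, the smallest possible) and the female ribosomal ratio -0.5514 (exact permutation p = 0.25, the smallest possible). The RNAs passing were 0 in each of the 3 strata. limma with this block called 0 chromosome M genes in male Bmp2+/+, beside 89 higher and 6 lower among all 9933 genes. 

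Leaving out 1 library at a time, the ∆UCS summed share ran from -12.05 to -8.166, the ribosomal ratio from -0.6059 to -0.4309 in females and from -0.2893 to 0.1236 in ∆UCS males, and the RNAs passing were 0 in male Bmp2+/+, 0 in females and 0 to 1 in ∆UCS males. Shares in ∆UCS males ran from -0.8452 to 2.509 for mt-Co1, -0.4531 to 0.1994 for mt-Atp6 and -0.3898 to 0.2179 for mt-Rnr1. limma calls of chromosome M genes ran from 0 to 2 in male Bmp2+/+, 2 without Kl/Kl replicate 3, and from 0 to 1 in females, 1 without Kl/Kl replicate 4. The shares of all genes called in these fits are not given here, so these counts are not results about the members.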
